A study of Mus musculus with 4 samples.

Results

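The genes described here are 10 genes of megakaryocytes and platelets. *Pf4* and *Ppbp* encode chemokines stored in platelet granules. *Itga2b*, *Itgb3*, *Gp9* and *Selp* encode receptors and adhesion proteins of the platelet surface. *F2r* encodes a thrombin receptor that mouse platelets largely lack. *Vwf* encodes the adhesive plasma protein von Willebrand factor, *Fli1* a transcription factor of megakaryocytes, and *Tubb1* the beta tubulin of platelets. The 10 genes, and the gene lists used below, were chosen by name with earlier results of these data known. Counts of them set beside all genes are thus a description only. Probe sets were found by the gene symbol in the annotation of the array. Of the 10 genes, 9 had a probe set, 1 each, among 19938 genes measured with a symbol of their own. *Selp*, the adhesion receptor P-selectin, was not analysed here. The values came from 4 one-color arrays, 1 each for granulocyte-macrophage progenitors (GMPs) and multipotent progenitors (MPPs) from WT and *Bcl11a*-/- donors. Fetal liver cells of either genotype had been injected into B6.SJL recipients that had received 1200 rad, and donor-derived cells were sorted from the bone marrow (BM) 4 weeks later. All 4 groups therefore share the irradiated host and the transfer. The genotypes are labeled *Bcl11a*(+/+) and *Bcl11a*(-/-). The latter carries a deletion of the first exon of *Bcl11a* in all donor cells. MPPs were cells of the LSK fraction (Lin-Sca-1+c-Kit+) without CD150, and sorted cells were pooled by donor genotype, so that each array is 1 pool, for which the number of mice was not found in the sources used here. A single array per group allows no test, and no difference below has a replicate check.

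Megakaryocytes are the large BM cells that shed platelets. They arise from multipotent progenitors, either along a path shared with red cells or directly from stem cells that already express some platelet genes. GATA1 with its cofactor FOG1, RUNX1, FLI1 and NF-E2 drive their gene program, and FLI1 and the erythroid factor KLF1 oppose each other where the megakaryocyte and red cell fates part. Platelet granules hold chemokines and adhesive proteins, which are released when thrombin acts on its receptors or when collagen or von Willebrand factor is bound. Platelet aggregation runs through the integrin built from the products of *Itga2b* and *Itgb3*, and adhesion under flow through the GPIb-IX-V complex, of which *Gp9* encodes a chain.

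The bases before the start of transcription are shown for *Pf4* and *Ppbp*, which are neighbors on the chromosome and differed in their pattern across the arrays, and for *F2r*, the third member with a difference of over 2-fold between genotypes. Each run is 250 bases of RefSeq sequence (GRCm38.p6), 5′ to 3′ on the strand of the gene, and ends at the base before the annotated start. *Ppbp* lies at chr5:90768268-90768517 (+), *Pf4* at chr5:90772185-90772434 (+) and *F2r* at chr13:95618467-95618716 (-). Capitals mark the letters GATA and TATAAA and the RUNX motifs TGTGGT and TGCGGT on either strand of the gene. A match on the opposite strand thus appears as its reverse complement, such as ACCACA for TGTGGT.

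Ppbp: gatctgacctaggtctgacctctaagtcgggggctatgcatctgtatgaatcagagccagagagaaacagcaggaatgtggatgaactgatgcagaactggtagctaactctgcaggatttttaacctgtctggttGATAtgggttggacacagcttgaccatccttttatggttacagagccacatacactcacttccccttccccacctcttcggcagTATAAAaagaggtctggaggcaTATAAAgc

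Pf4: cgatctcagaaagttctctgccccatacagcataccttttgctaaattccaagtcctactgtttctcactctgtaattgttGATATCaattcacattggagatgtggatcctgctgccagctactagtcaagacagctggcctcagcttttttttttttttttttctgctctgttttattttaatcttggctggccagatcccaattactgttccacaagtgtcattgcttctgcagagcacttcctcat

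F2r: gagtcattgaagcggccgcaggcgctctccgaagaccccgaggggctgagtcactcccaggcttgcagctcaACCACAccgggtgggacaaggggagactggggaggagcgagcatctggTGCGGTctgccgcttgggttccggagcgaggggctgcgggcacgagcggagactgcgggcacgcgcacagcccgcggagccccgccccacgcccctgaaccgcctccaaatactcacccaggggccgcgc

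*Ppbp* had TATAAA at 30 and at 8 bases before the start, and *Pf4* had none. These letters occurred in 12.4% of 32851 promoter windows of the same length. The letters GATA occurred once before *Ppbp* and on both strands of an overlapping pair before *Pf4*, and in 53.6% of all windows. The longer GATA motifs (AGATAA or AGATAG, or else TGATAA or TGATAG) and the ETS motifs (CAGGAAG or else CCGGAAG) had no match in the windows of the 7 members with a RefSeq promoter, while 26.5% and 17.0% of all windows held one. *F2r* had 2 RUNX matches and *Gp9* had 1, against a share of 18.6% of windows with at least 1. Both strands were searched, and the short GATA letters overlap the longer motifs. A match is a description of the letters only.

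Signals are log2 values after RMA, a summary of the probes of each probe set, and a difference of 1 on this scale is 2-fold. *Bcl11a* signal was 8.60 in WT and 7.77 in *Bcl11a*-/- GMPs, and 9.89 in WT and 8.64 in *Bcl11a*-/- MPPs. The populations were checked against their markers. All 10 GMP markers were lower in WT MPPs than in WT GMPs, 8 of them by more than 2-fold. *Slamf1*, which encodes CD150, was at 4.34 in WT and 4.87 in *Bcl11a*-/- MPPs, against 4.87 and 5.62 in GMPs. Its signals in MPPs and in WT GMPs were under 5, where values may not be above background, so that *Slamf1* gives no firm check of the sort. The arrays carry no count of molecules, and their number limits the precision. In pooled cells, more megakaryocyte-biased cells in a gate and more RNA per cell cannot be told apart.

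*Pf4*, which encodes platelet factor 4, was the member with the widest range. The signal was 7.94 (WT) and 7.59 (*Bcl11a*-/-) in GMPs, and 4.85 (WT) and 6.05 (*Bcl11a*-/-) in MPPs. Both GMP arrays were above both MPP arrays, and the WT MPP array was the lowest. In MPPs *Pf4* was 2.29-fold higher in *Bcl11a*-/- cells, and in GMPs it was 1.27-fold lower. The signal in WT MPPs was under 5, where values may not be above background, and with signals under 5 set to 5 the difference in MPPs was 1.05 log2 units.

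*Ppbp*, the precursor of the neutrophil-attracting chemokine NAP-2, gave another picture. The signal was 3.57 (WT) and 5.43 (*Bcl11a*-/-) in GMPs, and 3.86 (WT) and 3.97 (*Bcl11a*-/-) in MPPs. The *Bcl11a*-/- GMP array stood above the other 3. *Ppbp* was 3.62-fold higher in *Bcl11a*-/- than in WT GMPs, the rank of 10 from the top among 19938 genes. Since 3 of its 4 signals were under 5, the difference was 0.43 log2 units once signals under 5 were set to 5. In MPPs *Ppbp* differed by 0.11 log2 units.

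**Figure D1:**
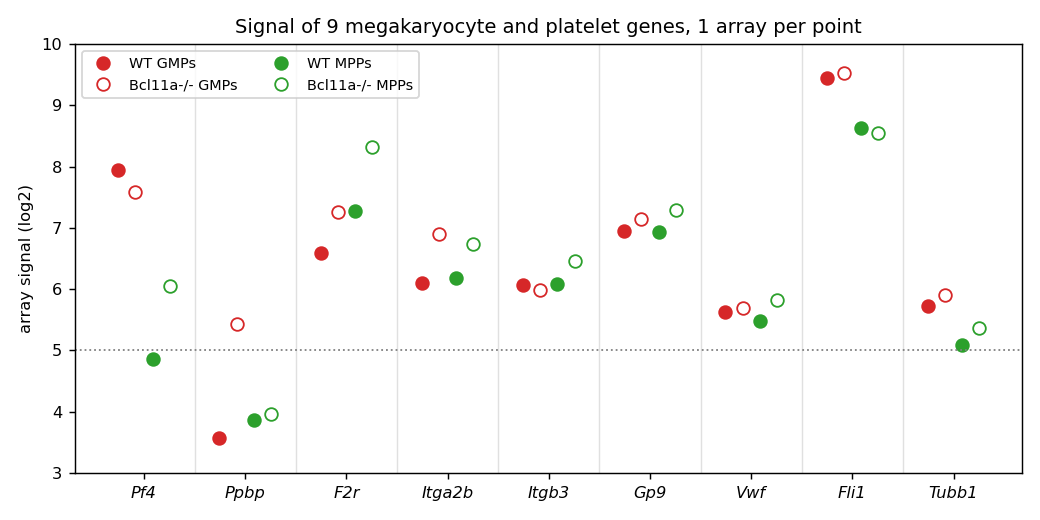
Array signal (log2) of the 9 measured genes by array, where red circles are GMPs, green circles are MPPs, open circles are *Bcl11a*-/- and filled ones WT, and the dotted line is at 5. *Pf4* is between 7.59 and 7.94 in GMPs and between 4.85 and 6.05 in MPPs, while *Ppbp* is above 5 in *Bcl11a*-/- GMPs alone.

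The chemokine genes beside *Pf4* and *Ppbp* on the chromosome were picked after the values of that pair were seen. *Cxcl5* was at 4.19 in WT and 4.43 in *Bcl11a*-/- GMPs and at 4.75 and 4.92 in MPPs. *Cxcl3* lay between 4.32 and 4.48 on the 4 arrays and *Cxcl15* between 3.12 and 3.62. All 3 were under 5 on every array, so that a difference in them could not be measured.

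*F2r* encodes PAR1, a receptor that thrombin activates by cleavage and that mouse platelets largely lack. The signal was 6.58 (WT) and 7.26 (*Bcl11a*-/-) in GMPs, and 7.27 (WT) and 8.31 (*Bcl11a*-/-) in MPPs. The *Bcl11a*-/- array was the higher one in either population, and *Bcl11a*-/- GMPs and WT MPPs had nearly the same value. *F2r* was 2.05-fold higher in *Bcl11a*-/- than in WT MPPs, just past the 2-fold line (0.99 log2 units with each comparison centred on its median), and 1.60-fold higher in GMPs. Of its relatives, *F2rl2*, which encodes the thrombin cofactor receptor PAR3 of mouse platelets, was at 6.73 in WT and 7.52 in *Bcl11a*-/- MPPs and at 6.36 and 6.37 in GMPs. *F2rl3*, which encodes PAR4, the signaling thrombin receptor of mouse platelets, went the other way in MPPs, from 6.57 in WT to 5.82 in *Bcl11a*-/- cells, and was at 5.70 and 5.80 in GMPs. Both relatives were named after their values were seen, and neither was over 2-fold between genotypes.

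*Itga2b*, which encodes integrin alpha IIb (CD41), also found on early progenitors and mast cells, was higher on both *Bcl11a*-/- arrays. The signal was 6.09 (WT) and 6.90 (*Bcl11a*-/-) in GMPs, and 6.18 (WT) and 6.73 (*Bcl11a*-/-) in MPPs. The 2 WT values lay below the 2 *Bcl11a*-/- values, at 1.75-fold in GMPs and 1.46-fold in MPPs, and neither difference was over 2-fold. The beta chain of the same integrin, encoded by *Itgb3*, did not follow in GMPs. *Itgb3* had a signal of 6.07 (WT) and 5.99 (*Bcl11a*-/-) in GMPs, and 6.09 (WT) and 6.46 (*Bcl11a*-/-) in MPPs. The first 3 of these arrays had similar values, and *Bcl11a*-/- MPPs were highest, 1.29-fold above WT MPPs.

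*Gp9*, which encodes glycoprotein IX of the von Willebrand factor receptor, and *Vwf*, its ligand, differed little. *Gp9* had a signal of 6.96 (WT) and 7.15 (*Bcl11a*-/-) in GMPs, and 6.94 (WT) and 7.29 (*Bcl11a*-/-) in MPPs. *Vwf* had signals of 5.62, 5.70, 5.49 and 5.83 in the same order. Both had the lowest value in WT MPPs and the highest in *Bcl11a*-/- MPPs, with ranges of 0.35 and 0.34 log2 units over the 4 arrays. *Gp5*, another chain of the receptor complex and not one of the 10 genes, had larger differences, from 5.92 in WT to 6.79 in *Bcl11a*-/- GMPs and from 6.42 to 7.24 in MPPs, which are 1.82-fold and 1.76-fold. A probe set shared by *Gp1bb* and *Septin5* differed by 0.0205 in GMPs and 0.29 in MPPs, and the signals of the 2 genes cannot be told apart there.

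*Fli1* followed population and not genotype. The signal was 9.44 (WT) and 9.53 (*Bcl11a*-/-) in GMPs, and 8.63 (WT) and 8.55 (*Bcl11a*-/-) in MPPs. The genotypes differed by 0.091 in GMPs and -0.083 in MPPs (0.0326 with the 4 arrays quantile normalized anew), while MPPs were 1.76-fold below GMPs in WT cells and 1.98-fold below in *Bcl11a*-/- cells. *Tubb1* also sorted by population, with 5.72 (WT) and 5.90 (*Bcl11a*-/-) in GMPs and 5.09 (WT) and 5.36 (*Bcl11a*-/-) in MPPs. Its genotype differences were 0.18 and 0.28 log2 units, and both GMP arrays were above both MPP arrays.

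Between *Bcl11a*-/- and WT GMPs, *Ppbp* was the single member higher by more than 2-fold and none was lower. Across all 19938 genes 0.361% were higher and 0.281% lower by more than 2-fold. Of the 9 members, 7 had a higher value in *Bcl11a*-/- GMPs and *Pf4* and *Itgb3* a lower one, where 51.9% of all genes were higher by any amount. The median difference of the members was 0.18, beside 0.0116 for all genes. The count of members over 2-fold rests on *Ppbp* and its low signal, and it was 0 among the 6 members that reached a signal of 6 in GMPs of some genotype, of which 4 were higher by any amount, where 46.0% of such genes were.

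Between *Bcl11a*-/- and WT MPPs, *Pf4* and *F2r* were higher by more than 2-fold and no member was lower. Of all genes 0.908% were higher and 2.02% lower by more than 2-fold. More genes were thus lower than higher by this measure, while both members past 2-fold were higher. A value higher in *Bcl11a*-/- MPPs was seen for 8 of 9 members, against 55.6% of all genes, and *Fli1* was the exception. The median difference was 0.35 for the members and 0.0455 for all genes. Among the 6 members that reached a signal of 6 in MPPs of some genotype, 5 were higher, where 45.6% of such genes were. The GMP and MPP comparisons share no array, but both populations of a genotype were taken from the same BM, so that the 2 comparisons are not independent replicates.

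**Figure D2:**
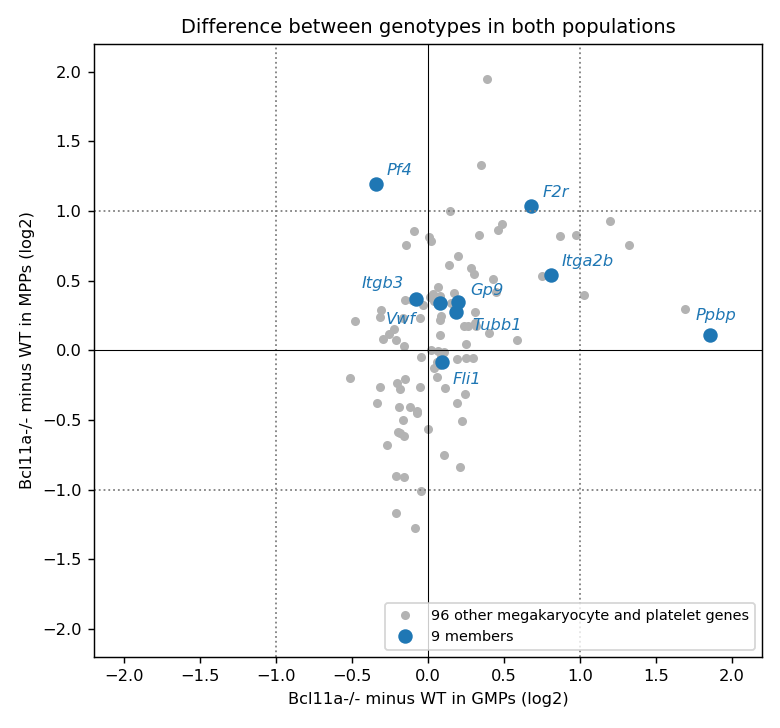
Log2 difference between *Bcl11a*-/- and WT cells in GMPs (horizontal axis) and MPPs (vertical axis) for the 9 members (blue) and 96 other megakaryocyte and platelet genes (grey), 1 array per condition, with dotted lines at 2-fold. *Ppbp* is far to the right at 1.86 and 0.11, *Pf4* is at the upper left at -0.35 and 1.20, and *F2r* and *Itga2b* are above 0 on both axes.

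Between MPPs and GMPs of WT donors, *Pf4* was 8.47-fold lower in MPPs, the rank of 7 from the bottom among all genes, with a difference of -3.08 log2 units that was -2.94 with signals under 5 set to 5. It was the single member past 2-fold, where 2.8% of genes were lower and 1.33% higher in MPPs. For *Bcl11a*-/- cells, *Pf4* was 2.91-fold and *Ppbp* 2.75-fold lower in MPPs than in GMPs, and *F2r* was 2.07-fold higher, where 5.82% of genes were lower and 2.36% higher. With signals under 5 set to 5 the *Ppbp* difference was -0.43 log2 units. Of the 9 members, 4 were higher in MPPs in WT cells and 4 in *Bcl11a*-/- cells, against 57% and 59.4% of all genes. The members' medians were -0.016 in WT and -0.17 in *Bcl11a*-/- cells, beside 0.0575 and 0.0955 for all genes. The population comparisons use the same 4 arrays as the genotype comparisons and are not independent of them.

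**Figure D3:**
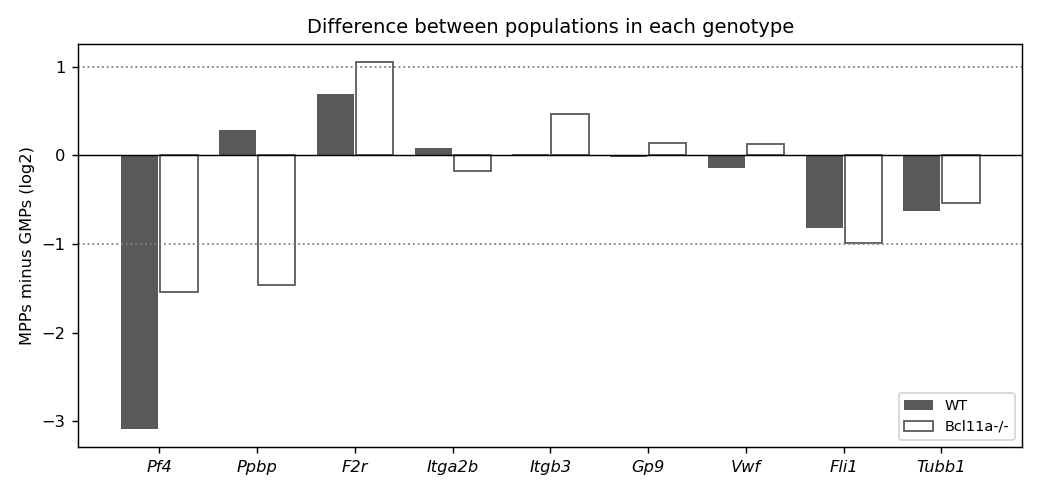
Log2 difference between MPPs and GMPs for each member in WT (filled bars) and *Bcl11a*-/- cells (open bars), 1 array per condition, with dotted lines at 2-fold. *Pf4* is at -3.08 in WT and -1.54 in *Bcl11a*-/- cells, and *Ppbp* at 0.28 and -1.46.

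Other genes of megakaryocytes and platelets were read in 4 lists by role, 96 measured genes in all. In *Bcl11a*-/- GMPs 4 of the 96 were higher by more than 2-fold and none was lower, and all 4 were transcription factor genes. The highest of the 4, *Klf1*, is an erythroid factor and is counted again among the erythroid markers below. In *Bcl11a*-/- MPPs 2 were higher and 3 lower by more than 2-fold, where 0.908% and 2.02% of all genes were, so that the shares in MPPs were near the background. In GMPs 0.361% of all genes were higher. The medians over the 96 genes were 0.062 in GMPs and 0.14 in MPPs, beside 0.0116 and 0.0455 for all genes.

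Among 21 transcription factor genes, *Klf1*, the erythroid factor that opposes FLI1, was 3.23-fold higher in *Bcl11a*-/- GMPs, *Gfi1b*, a repressor needed for red cells and platelets, 2.51-fold, *Gata2* 2.29-fold and *Gata1*, the shared factor of the red cell and megakaryocyte lineages, 2.04-fold. *Gata1* signal went from 6.44 in WT to 7.47 in *Bcl11a*-/- GMPs and from 6.79 to 7.19 in MPPs. *Zfpm1*, which encodes the GATA1 cofactor FOG1 and was named after its values were seen, was just inside 2-fold in GMPs, with a difference of 0.97, and at 0.83 in MPPs. *Nfe2* and *Runx1*, also named after their values were seen, differed by 0.061 and 0.11 in GMPs and by -0.0073 and -0.0094 in MPPs. In MPPs none of the 21 was over 2-fold, with *Gata2* highest at 0.93 and *Spi1*, which encodes the myeloid factor PU.1, lowest at -0.68.

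Among 20 granule and secreted genes, none was over 2-fold in GMPs, where *Rab27b*, a GTPase of granule release, was highest at 0.46 and *Gng11* lowest at -0.51. In *Bcl11a*-/- MPPs *Cd63*, a granule membrane tetraspanin found in many cells, was 3.87-fold higher and *Thbs1*, which encodes the granule protein thrombospondin 1, 2.52-fold higher. *Thbs1* signal was 6.77 in WT and 8.10 in *Bcl11a*-/- MPPs, and 6.43 and 6.77 in GMPs. *F13a1*, the clotting factor XIII subunit of platelets and monocytes, was 2.24-fold lower in *Bcl11a*-/- MPPs. The median over the 20 genes was 0.033 in GMPs and 0.12 in MPPs.

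Among 22 surface receptor genes, none was higher by more than 2-fold in either population. *Gp5* was the highest in GMPs at 0.87 and *Esam*, an adhesion molecule of platelets, endothelium and stem cells, the highest in MPPs at 0.91. *Ptger3*, a prostaglandin E2 receptor gene, was 2.01-fold lower in *Bcl11a*-/- MPPs, and *Tbxa2r*, the thromboxane receptor gene, was lowest in GMPs at -0.32. *Treml1* and *Clec1b*, named after their values were seen and both markers of platelets, differed by 0.15 and 0.058 in GMPs and by 0.34 and -0.081 in MPPs. *Clec1b* stayed between 3.64 and 3.78 on the 4 arrays.

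Among 33 cytoskeleton and signaling genes, none was over 2-fold in GMPs, with *Ppif* highest at 0.31 and *Rasgrp2*, an exchange factor that activates platelet integrins through Rap1, lowest at -0.34. In MPPs *Tuba4a*, an alpha tubulin gene, was 2.42-fold lower in *Bcl11a*-/- MPPs, from 10.79 in WT to 9.51, and *Pstpip2* was highest at 0.9998, just inside 2-fold.

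**Figure D4:**
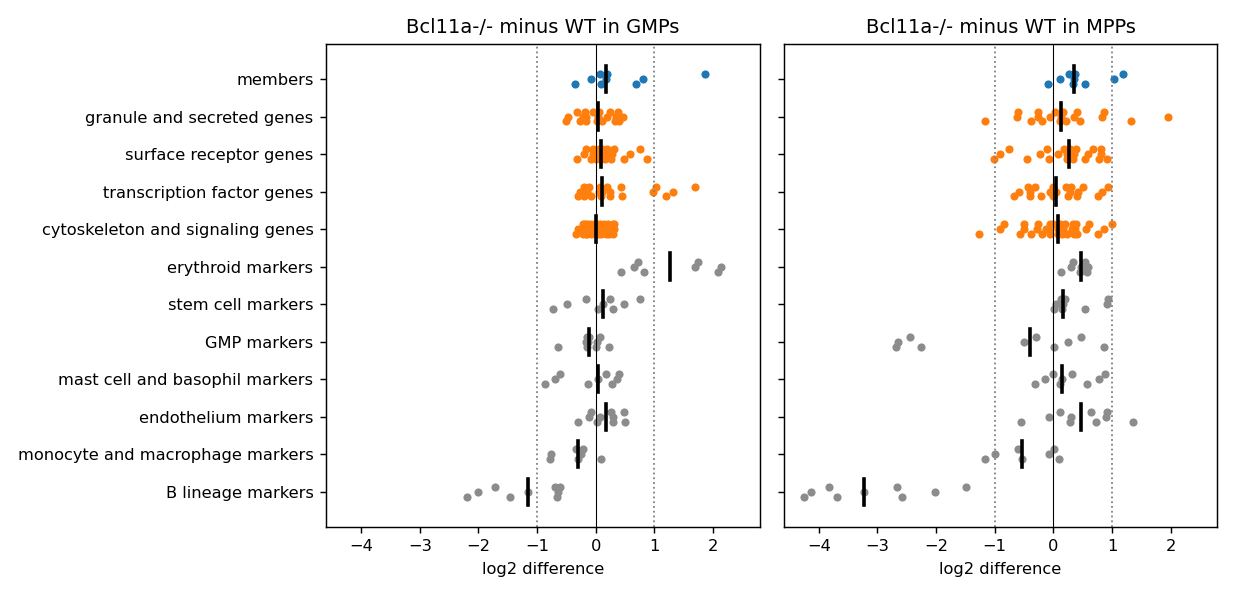
Log2 difference between *Bcl11a*-/- and WT cells in GMPs (left) and MPPs (right) for the members (blue), the 4 role lists (orange) and marker lists of other cell types (grey), 1 point per gene, with the list median as a black bar and dotted lines at 2-fold. The members have medians of 0.18 and 0.35, the erythroid markers 1.26 and 0.46, and the B lineage markers -1.16 and -3.23.

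Markers of other cell types also differed between the genotypes. All 8 measured erythroid markers were higher in *Bcl11a*-/- GMPs, 4 of them by more than 2-fold, *Klf1* of the transcription factor list included. All 8 were also higher in *Bcl11a*-/- MPPs, none by more than 2-fold. Their summed signal on the log2 scale went from 10.82 in WT to 12.73 in *Bcl11a*-/- GMPs and from 12.44 to 12.79 in MPPs. *Car1* and *Rhag*, a red cell enzyme and a red cell membrane protein, were at 12.46 and 7.36 in *Bcl11a*-/- GMPs, and at 10.38 and 5.21 in WT GMPs. Hemoglobin probe sets shared by several genes, not counted in the list, differed otherwise. For *Hba-a1* with *Hba-a2* they were 0.22 higher in *Bcl11a*-/- GMPs on both probe sets, and differed by -0.80 and -0.75 in MPPs. Those of *Hbb-b1*, shared with other beta globin genes, differed by 0.14 and 0.11 in GMPs and by -0.37 and -0.65 in MPPs. The array with the highest *Ppbp* and *Itga2b* signal was thus also one with high erythroid markers, and the part of such cells in these results was not tested. Of 8 measured markers of megakaryocytes and platelets, 5 of them members, 7 were higher in *Bcl11a*-/- GMPs and 7 in *Bcl11a*-/- MPPs, 1 by more than 2-fold in each. These counts include *Clec1b* in GMPs and *Ppbp* in MPPs, each under 5 in both genotypes. The marker over 2-fold was *Ppbp* in GMPs and *Pf4* in MPPs, at 0.43 and 1.05 log2 units with signals under 5 set to 5. Among all genes 51.9% and 55.6% were higher by any amount, and 0.361% and 0.908% by more than 2-fold.

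Of 10 endothelial markers, listed because *Vwf*, *F2r* and *Esam* are also endothelial genes, 8 were higher in *Bcl11a*-/- MPPs, with *Sox18* over 2-fold, from 5.34 to 6.70, and 7 were higher in GMPs, none over 2-fold. Their summed signal went from 9.12 to 9.51 in MPPs and from 8.77 to 8.93 in GMPs, and *Cdh5*, a defining gene of endothelium, was at 5.51 in WT and 5.63 in *Bcl11a*-/- MPPs. *Tek* and *Kdr* were under 5 in MPPs of both genotypes, and *Tek*, *Kdr*, *Emcn* and *Esam* were so in GMPs of both. All 9 stem cell markers were higher in *Bcl11a*-/- MPPs, none over 2-fold, and their summed signal went from 10.36 to 10.54. Of these, *Hoxb5* differed by 0.0088, and *Hoxb5* and *Slamf1* were under 5 in MPPs of both genotypes. In GMPs 6 of the 9 were higher, from 9.95 to 10.02 in sum. *Slamf1*, *Meis1* and *Esam* are also in the role lists, and *Esam* is counted among the endothelial markers as well. Among all genes 51.9% were higher by any amount in *Bcl11a*-/- GMPs and 55.6% in *Bcl11a*-/- MPPs, where 0.908% were over 2-fold. Of 9 mast cell and basophil markers none was over 2-fold between genotypes, 5 were higher in *Bcl11a*-/- GMPs (median 0.034) and 6 in *Bcl11a*-/- MPPs (median 0.14), and their sum was 11.33 in WT and 11.13 in *Bcl11a*-/- GMPs and 10.72 and 10.78 in MPPs. The part of these cells in the *Pf4*, *F2r* and *Itga2b* values was not tested.

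GMP markers, like *Pf4*, were higher in GMPs than in MPPs. Among *Bcl11a*-/- MPPs 4 of 10 GMP markers were lower by more than 2-fold and none was higher by as much, while by any amount 6 were lower and 4 higher, led by *Cebpe* at 0.87 and *Fcgr3* at 0.47, with a sum of 13.43 in WT and 12.21 in *Bcl11a*-/- MPPs. In GMPs their sum was 15.02 in WT and 14.94 in *Bcl11a*-/- cells, with none over 2-fold. All 7 measured monocyte and macrophage markers were within 2-fold in GMPs. In MPPs 1 was lower by more than 2-fold, *F13a1*, which is also in the granule list. The sums of the 7 were 12.82 and 12.55 in GMPs and 11.65 and 11.20 in MPPs. Probe sets shared by *Ly6c2* and *Ly6c1*, not counted in the list, differed by -0.37 and -0.018 in GMPs and by -1.20 and -0.96 in MPPs. B lineage markers were lower in *Bcl11a*-/- cells for 9 of 9 genes in both populations, 5 by more than 2-fold in GMPs and 9 in MPPs, and their sum went from 10.07 to 9.08 and from 12.13 to 8.92. Their part in the values of the members was not tested.

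For the 3 members whose signals spanned more than 1 log2 unit, the genes nearest in pattern were sought among all genes with a signal of at least 6 on some array, by the root mean square distance of the 4 values after each gene was centred on its own mean. *Pf4* was nearest to *Mgl2* (distance 0.12 log2 units), a lectin gene of macrophages and dendritic cells, then to *Sgms2* (0.14) and *Sat1* (0.21). *Mgl2* was at 3.34 in WT and 4.33 in *Bcl11a*-/- MPPs, both under 5, so that its match in MPPs rests on values that may not be above background. *Sgms2* and *Sat1* were above 5 on all 4 arrays. *F2r* was nearest to *Arhgap6* (0.045), *Nol4l* (0.0545) and *Tmem184a* (0.068), the last of which was under 5 in WT GMPs, at 4.64. *Ppbp* was nearest to *Mag* (0.17), *Ehd2* (0.17) and *Trib2* (0.19), but with signals under 5 set to 5 it spanned 0.43 log2 units and would not have been searched. *Mag* was under 5 on all arrays but that of *Bcl11a*-/- GMPs, and *Ehd2* on both WT arrays. None of the 9 nearest genes is on a megakaryocyte and platelet list. With 4 arrays and 10151 or 10152 genes searched, close patterns are found for many genes, and the distances are a description.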

How the data were processed

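GMPs and MPPs came from BM of mice given fetal liver cells, in 1 pool per genotype, with 1 array per group and 4 in all. Per the labels, RNA was amplified and biotin-labeled. The authors deposited log2 signals after RMA with quantile normalization in ArrayStar, version not given in the sources used here. Background correction and probe summary stand as deposited, and quantile normalization can hide a change in total mRNA per cell. Of 30177 rows, 1324 with the lowest identifiers and no annotation were taken as controls and left out of centring. Genes were named from the platform annotation, with 21789 probe sets of 1 symbol and 1621 of several; the latter were not averaged. Probe sets of a gene were averaged, and a difference is that of 2 arrays. Differences of over 2-fold, the study's threshold, were counted without a test. Named genes were the 10 members, genes of the role lists over 2-fold between genotypes or highest or lowest in a list, and the 3 nearest in pattern; others are marked as named after their values were seen, apart from markers of the fixed lists and the targeted gene. The members and lists were chosen with earlier results of these data known. Summed signals are log2 of the sum of linear signals. Of the listed genes, those without a probe set of 1 symbol were left out of the lists. The shared probe sets of *Gp1bb*, *Hba-a1*, *Hbb-b1* and *Ly6c2* are given apart. Promoter windows were searched for the GATA, ETS and RUNX motifs; the letters GATA and TATAAA were added after the windows were read. Alternatives were a filter at a log2 signal of 6, a floor at 5, lowess (span 0.3) or median centring, quantile normalization anew, the brightest probe set, and thresholds of 1.5-fold and 3-fold. Lowess centring and quantile normalization were tested on 1 simulated pair of arrays, made from the WT MPP signals with known differences put in. The other steps were not tested in this way. Python 3.11.15, numpy 2.4.6, pandas 2.3.3, statsmodels 0.14.6 and matplotlib 3.10.9 were used.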

Additional observations from a re-analysis of the deposited data

Results flagged for a closer look

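Several genes had opposite signs under the same contrast in the 2 populations or the 2 genotypes. With 1 array per condition none of these differences was tested, and most are small. *Pf4* differed between *Bcl11a*-/- and WT cells by -0.35 log2 units in GMPs and by 1.20 in MPPs. *Itgb3* differed by -0.082 and 0.37, and *Fli1* by 0.091 and -0.083. Outside the members, *Tbxa2r* differed by -0.32 in GMPs and 0.24 in MPPs, and *Mafk*, which encodes a small Maf partner of NF-E2, by -0.31 and 0.29.

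Between MPPs and GMPs, *Ppbp* differed by 0.28 in WT and by -1.46 in *Bcl11a*-/- cells. *Itga2b* differed by 0.090 and -0.17, *Vwf* by -0.14 and 0.13, and *Gp9* by -0.016 and 0.14. The opposite signs were lost for *Vwf* after lowess centring, at -0.27 and -0.020, and for *Gp9* with the arrays quantile normalized anew, at 0.040 and 0.27. For *Ppbp*, whose WT signals were both under 5, they were lost with signals under 5 set to 5, at 0.0 and -0.43.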

How the results depend on the processing

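Of 204 recomputed differences of single members, 199 stayed on the same side of the 2-fold line, 4 fell inside it, 1 passed it, and none over 2-fold changed sign. Each member had 1 probe set, so the brightest probe set gave the deposited values. The filter also left each member that it kept at its deposited value. The differences under these settings are among the 204 but could not move. With the 4 arrays quantile normalized anew, *Fli1* and *Ppbp*, both within 2-fold, differed by 0.0326 and -0.0078 in MPPs, against -0.083 and 0.11 as deposited. *Ppbp* was 0.43 in GMPs and -0.43 between *Bcl11a*-/- MPPs and GMPs with signals under 5 set to 5. *F2r* was 0.99 in MPPs and 0.95 between *Bcl11a*-/- MPPs and GMPs after median centring, where *Fli1* was -1.09 in the latter. The number of members higher by more than the threshold in *Bcl11a*-/- GMPs was 0 with the filter or the floor and 3 at 1.5-fold. Of the genes at these settings 0.53%, 0.25% and 2.02% were higher by as much. In *Bcl11a*-/- MPPs the number of members past the threshold was 1 after median centring and 0 at 3-fold, where 0.72% and 0.13% of genes were higher. Between WT MPPs and GMPs 1 member was higher and 3 were lower by more than 1.5-fold, where 6.671% and 7.975% of genes were. The median of the members in this comparison was 0.0027 with the filter. Between *Bcl11a*-/- MPPs and GMPs 1 member was lower by more than 2-fold with the filter or the floor, where 11.44% and 5.64% of genes were. None was higher by more than 2-fold after median centring, where 1.66% of genes were. At 3-fold 0 members were higher and 0 lower, where 0.41% and 1.87% of genes were. The members higher by any amount were 4 of 6 in *Bcl11a*-/- GMPs and 5 of 6 in MPPs with the filter. The other counts over 2-fold were within 1.5 times those reported, and the other medians kept their sign. Small differences between MPPs and GMPs also changed sign for *Itgb3* (0.0215, and -0.061, -0.036 and -0.031 after lowess, median centring and quantile normalization anew) and as given above for *Vwf* and *Gp9*. *Ppbp*, *Vwf* and *Tubb1* had signals under 6 on all 4 arrays and could not be counted with the filter. No paired analysis was possible because each group holds 1 array, and no replicate could be left out. Each value rests on 1 array, and signals under 5 carry little information on direction.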
